A study of Bos indicus with 12 samples.

Results

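Known targets of type II interferon were examined in the corpus luteum (CL) of cows on day 18. They are 7 genes, namely the guanylate-binding protein (GBP) genes GBP2, GBP4 and GBP5, the chemokine genes CXCL9 and CXCL10, the lysosomal reductase gene IFI30 and the lectin gene LGALS9. The members were taken by gene symbol, and each had 1 row among the 15178 genes of the deposited table. All 7 passed the filter for the test, which kept the 11907 genes that reached 30 in 1 cow or more. Each library was poly-A RNA of the CL of 1 Bos indicus cow, non-lactating and multiparous, after a synchronized estrus. The 6 pregnant (P) cows had been inseminated and carried an elongated embryo on day 18, and the 6 non-pregnant (NP) cows belonged to a cyclic group that was not inseminated. ISG (interferon-stimulated gene) expression was itself among the signs by which the study established pregnancy, so the P cows were not chosen without regard to interferon responses.

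Type II interferon, or IFNG, is made mainly by T and NK cells and signals through the receptor chains IFNGR1 and IFNGR2 and the kinases JAK1 and JAK2. Type I interferons, to which the IFNT of the ruminant conceptus belongs, use other receptors but share part of the downstream route, so that many genes known as IFNG targets also respond to them. GBPs are large GTPases that gather on bacteria and on vacuoles that hold pathogens. CXCL9 and CXCL10 attract activated T and NK cells through the receptor CXCR3, the IFI30 protein reduces disulfide bonds of antigens in lysosomes, and LGALS9 encodes galectin-9, a ligand of the receptor HAVCR2.

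Values are normalized counts, that is, reads per gene scaled by the size factor that DESeq2 gave each library. The reads behind them came to between 6148184 and 8253360 per NP library (median 6996792.5) and between 2038858 and 7534503 per P library (median 4392938). Cows 01, 18 and 28, all P, had the 3 smallest totals, and the members' calls are therefore also given without them. Luteal markers were abundant, since 9 luteal marker genes such as STAR, CYP11A1 and HSD3B1 summed to between 165710 and 301360 normalized counts in each cow and none of the 9 was called. A gene was called when limma gave a Benjamini-Hochberg adjusted p below 0.05 over all tested genes and the log2 fold change was 0.58 or more in size. The cows are separate animals, and no batch is named in the labels.

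GBP2, GBP4 and LGALS9 were higher in the CL of P than of NP cows, whereas GBP5, CXCL9, CXCL10 and IFI30 were not called. The rise was 6.53-fold for GBP2 (95% interval 2.48 to 17.2), 5.53-fold for GBP4 (1.80 to 17.0) and 1.60-fold for LGALS9 (1.21 to 2.10), as means on the log2(value + 1) scale over 6 cows per group. Thus 3 of 7 members were called higher, beside 12% of all tested genes, and 0 were called lower, beside 14.8% of all tested genes. The median log2 fold change was 0.68 over the members and -0.01 over all tested genes, and the reference genes GAPDH (-0.14, limma adjusted p = 0.543) and RPS26 (0.22, adjusted p = 0.288) were not called. A list of 7 genes chosen with earlier results known is described by these counts and was not tested as a set.

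**Figure D1:**
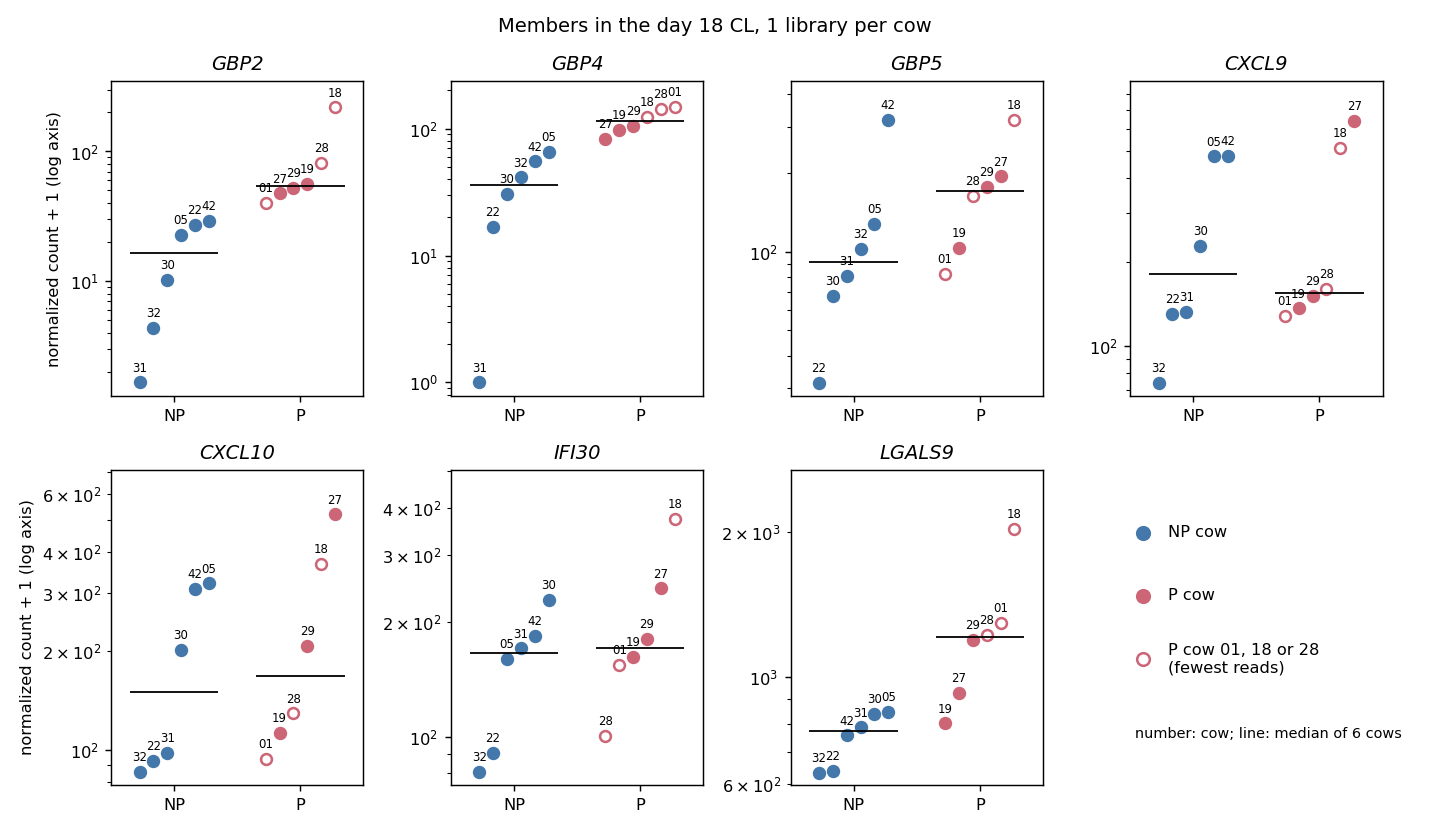
Normalized count + 1 (log axis) of each member in the 6 NP cows (blue) and the 6 P cows (red, open for cows 01, 18 and 28), with the cow number beside each point and the group median as a line. GBP2 and GBP4 show no overlap between the groups, LGALS9 overlaps through P cow 19 (800.2 normalized counts), and the other members overlap widely.

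GBP2, a GTPase that binds membranes in humans through a lipid anchor, was scarce in NP cows. NP cows 31, 32, 30, 05, 22 and 42 had 0.65, 3.35, 9.13, 21.77, 26.0 and 27.91 normalized counts. P cows 01, 27, 29, 19, 28 and 18 had 39.09, 46.5, 51.07, 55.13, 81.04 and 217.97. Every P cow was thus above every NP cow, and cow 18 stood well over the other P cows. The difference was 2.71 on the log2 scale (SE 0.66, limma adjusted p = 0.00661), and the two-sided exact permutation p was 0.00216, the smallest that 6 against 6 cows allow.

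GBP4, a related GTPase, showed the same separation with less spread among P cows. In NP cows it was listed at 0 in cow 31 and at 15.85, 29.66, 40.21, 54.17 and 64.54 normalized counts in cows 22, 30, 32, 42 and 05. P cows ranged only from 82.12 in cow 27 through 96.11, 103.79, 123.38 and 141.16 to 146.59 in cow 01. The lowest P cow was above the highest NP cow, and P values lay within 1.79-fold of each other. The log2 fold change was 2.47 (SE 0.76, limma adjusted p = 0.0218, exact permutation p = 0.00216). Without NP cow 31 it was 1.59, or 3.02-fold (limma adjusted p = 0.00431), so that the size of the fold rested in part on that cow while the call did not. For GBP2 the value without NP cow 31 was 2.17, or 4.51-fold.

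Across the table, 6.21% of the tested genes had every P cow above every NP cow, as did 2 of the 7 members. These 2 genes rest on few reads. Recovered reads of GBP2 were 1 to 41 in NP and 24 to 106 in P cows, and those of GBP4 were 0 to 83 and 54 to 129. GBPs form a family of similar genes, and reads shared between copies can be lost or moved in counting, so their levels carry that uncertainty.

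GBP5, whose product is known from mice to promote inflammasome assembly, had a mean of 120 ± 102 normalized counts in NP and 172 ± 83.9 in P cows (SD, n = 6 each). NP cows 22, 30, 31, 32, 05 and 42 had 30.44, 66.93, 79.63, 101.37, 126.74 and 316.81. P cows 01, 19, 28, 29, 27 and 18 had 81.44, 102.07, 162.07, 176.27, 192.94 and 318.72. NP cow 42 nearly reached the highest P cow, and 4 of the other 5 NP cows lay below 5 of the 6 P cows. The log2 fold change was 0.74 (SE 0.44, limma adjusted p = 0.204, interval -0.21 to 1.68). Leaving out NP cow 42 gave 1.09 and an adjusted p of 0.0387, which passes the thresholds. Over its other alternatives the adjusted p went up to 0.699. The difference in response between GBP5 and the other GBPs was not itself tested.

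**Figure D2:**
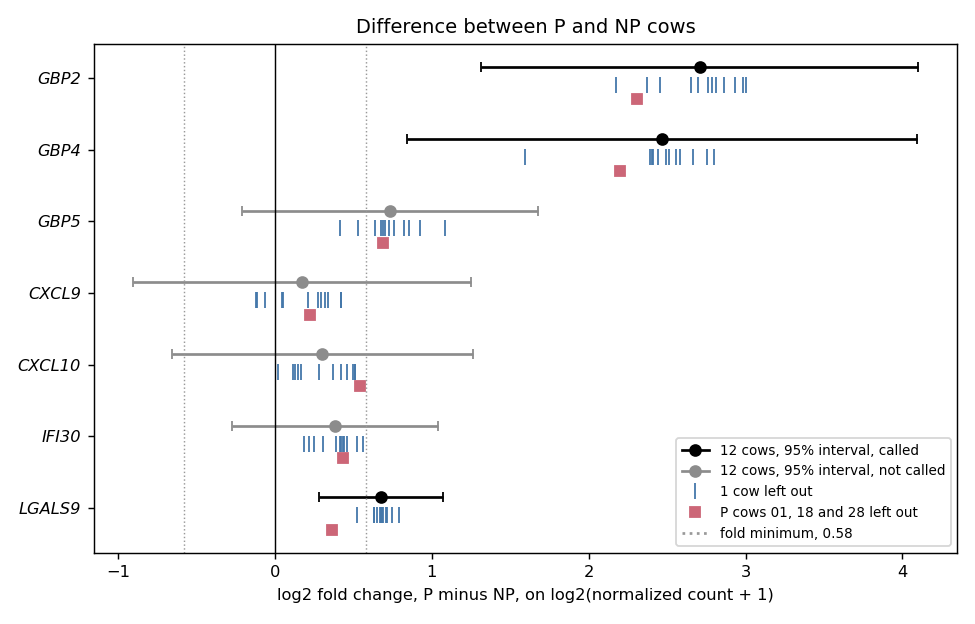
Log2 fold change of each member, P minus NP, on log2(normalized count + 1), with its 95% interval over 12 cows (black where called, grey where not), the values with 1 cow left out (blue ticks) and the value without P cows 01, 18 and 28 (red squares). Intervals of GBP2, GBP4 and LGALS9 lie above 0, and those of the other 4 members span 0.

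LGALS9 varied little among NP cows, with 632.5, 637.98, 755.91, 785.26, 836.65 and 846.77 for cows 32, 22, 42, 31, 30 and 05 (mean 749 ± 94.3 normalized counts, n = 6). P cows 19, 27, 29, 28, 01 and 18 had 800.2, 925.14, 1191, 1223, 1292 and 2028. Thus 5 of 6 P cows lay above all NP cows, and cow 19 lay within the NP range. The log2 fold change was 0.68 (SE 0.19, limma adjusted p = 0.0124, exact permutation p = 0.00649). Without P cow 18 it was 0.52 (adjusted p = 0.0181), which is under the fold minimum of 0.58. The call was therefore not kept without that cow, although the adjusted p still was below 0.05.

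The chemokine genes differed far more between cows of 1 group than between the groups. CXCL9 came to 72.88, 129.37, 132.06, 228.18, 475.87 and 479.32 normalized counts for NP cows 32, 22, 31, 30, 05 and 42. For P cows 01, 19, 29, 28, 18 and 27 it came to 127.04, 135.6, 149.92, 159.46, 512.01 and 636.22. In each group a pair of cows stood above the other 4, namely cows 05 and 42 among NP and cows 18 and 27 among P. The log2 fold change was 0.17 (SE 0.51, limma adjusted p = 0.808), with an interval of 0.534-fold to 2.38-fold. This interval leaves room for a change of that size in either direction.

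CXCL10 had the same lowest cow as CXCL9 in each group. NP cows 32, 22, 31, 30, 42 and 05 had 84.61, 91.32, 97.11, 200.8, 307.78 and 320.36 normalized counts. P cows 01, 19, 28, 29, 18 and 27 had 92.84, 111.76, 128.09, 206.75, 368.07 and 520.45. Again cows 05, 42, 18 and 27 were the 4 highest, and the groups overlapped over most of their range. Its log2 fold change was 0.30 (SE 0.45, limma adjusted p = 0.619, interval -0.66 to 1.26).

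Within a group the CXCL9 and CXCL10 values went together. Over the 6 NP cows Pearson's r of the log2 values was 0.97 (exact permutation p = 0.00278) and Spearman's rho 0.94 (exact permutation p = 0.0167). Over the 6 P cows r was 0.94 (exact permutation p = 0.00556) and rho 0.94 (exact permutation p = 0.0167). Adjusted over the 42 relations computed, 21 pairs of members in each group, both values of r had an exact permutation p of 0.117 and did not pass. Without the 2 cows farthest from the median of CXCL9, r was 0.87 over 4 NP cows and 0.65 over 4 P cows. Of the 42 relations, 36 had a positive r, and none passed after adjustment. GBP5 had an r of 0.82 with CXCL10 in P cows (exact permutation p = 0.0514, adjusted p = 0.415, rho 0.94, r = 0.74 without the 2 cows farthest from the median).

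**Figure D3:**
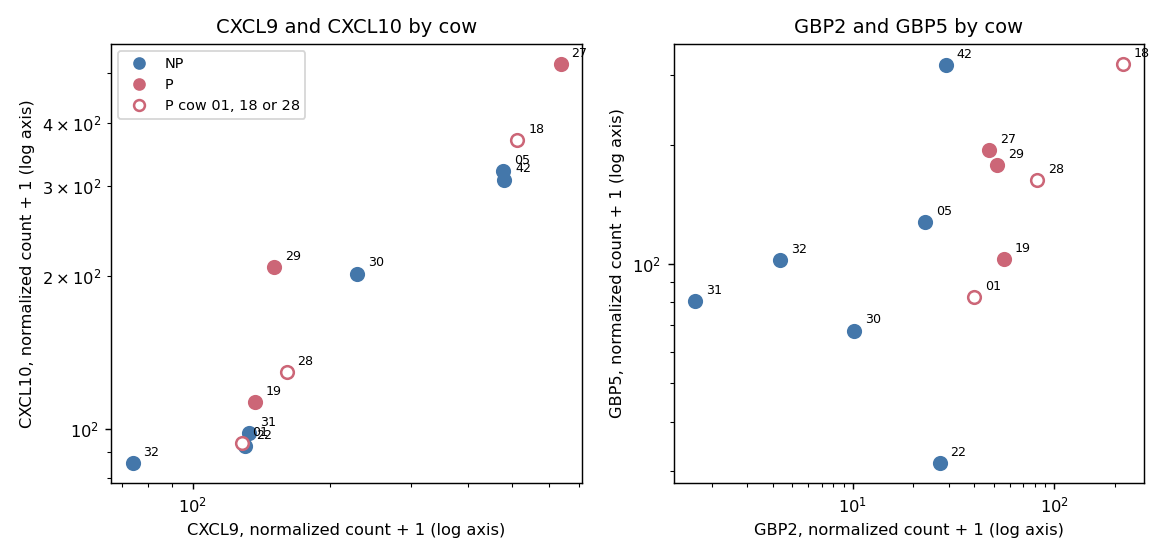
CXCL10 against CXCL9 (left) and GBP5 against GBP2 (right) in each cow, as normalized count + 1 on log axes, with NP cows in blue and P cows in red (open for cows 01, 18 and 28). CXCL9 and CXCL10 lie along 1 band shared by both groups, whereas GBP2 parts the groups along its axis (NP up to 27.91, P from 39.09) and GBP5 does not.

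The third ligand of CXCR3, CXCL11, lies beside CXCL10 in the RefSeq assembly NIAB-ARS_B.indTharparkar_mat_pri_1.0, in which ART3 lies between CXCL9 and CXCL10. CXCL11 was high in the same 4 cows, with 96.42 and 138.71 normalized counts in NP cows 05 and 42 and 141.88 and 114.78 in P cows 18 and 27. Its other values were 7.61 to 22.01 in NP and 14.9 to 57.51 in P cows, and the difference was not called (0.70 on the log2 scale, SE 0.70, limma adjusted p = 0.451). The receptor gene CXCR3 itself was below the filter, at 3.35 to 15.59 normalized counts in NP and 2.61 to 20.78 in P cows.

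IFI30 had nearly the same median in both groups. NP cows 32, 22, 05, 31, 42 and 30 had 79.59, 89.42, 159.4, 169.61, 183.03 and 228.18 normalized counts (median 164.5). P cows 28, 01, 19, 29, 27 and 18 had 99.33, 153.11, 160.93, 179.57, 244.39 and 372.19 (median 170.25). P cows 27 and 18 were above all NP cows, and the other 4 lay within the NP range. The log2 fold change was 0.38 (SE 0.31, limma adjusted p = 0.343), with an interval of 0.828-fold to 2.06-fold.

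The same few cows tended to lead. P cow 18 was highest of its group in 4 of the 7 members and among the top 2 in 6. NP cow 42 was highest in 3 and among the top 2 in 6, and NP cow 05 was highest in 3 and among the top 2 in 5. At the lower end, NP cow 32 was lowest of its group in 4 members and P cow 01 in 4. P cow 01 was nonetheless the highest P cow in GBP4, and P cow 27, highest in CXCL9 and CXCL10, was the lowest in GBP4. GBP2, in contrast to GBP4, was lowest in P cow 01, as were CXCL9 and CXCL10.

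By profile over all 12 cows, centred on each gene's mean, CXCL9 and CXCL10 were each other's nearest gene among 7111 with a mean of at least 100, at a root mean square difference of 0.31 on the log2 scale. RAC2 and CD74 came next for both, at 0.54 to 0.64. For GBP5 the nearest were CCL2 (0.43), CCL14 (0.50) and CORO1A (0.56). IFI30 was nearest to CTSW (0.33), IL2RB (0.33) and MYO1F (0.36). LGALS9 had the closest matches, with TAOK3 (0.10), R3HDM4 (0.13) and C7H19orf66 (0.13), on a profile that itself varied by only 0.47 about its mean. For GBP2 the nearest were FYB1 (1.00), SNTB2 (1.11) and PRKCB (1.13), and for GBP4 they were CENPT (1.34), SNTB2 (1.37) and AGER (1.37). GBP2 and GBP4 themselves had means under 100 over the 12 cows, so they were compared only with more abundant genes. The genes' own variation about the mean was 1.82 for GBP2 and 1.92 for GBP4. It was 0.92 for GBP5, 0.98 for CXCL9, 0.88 for CXCL10 and 0.60 for IFI30, so the differences are not on 1 scale.

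Of 15 tested genes of the IFNG receptor and signalling list 3 rose, 3 fell and 9 were not called (median log2 fold change 0.16), which is near the 12% and 14.8% of all tested genes called higher and lower. IRF1, a transcription factor that IFNG induces and that acts on GBP promoters, had 429 ± 142 normalized counts in NP and 809 ± 331 in P cows (log2 fold change 0.89, SE 0.24, limma adjusted p = 0.0124). It was highest in P cow 18 (1433) and, among NP cows, in cow 42 (675.47), which exceeded P cows 01 (521.21) and 19 (537.19). SOCS1, an inhibitor of JAK kinases, rose from 12.6 ± 8.02 to 38.3 ± 10.7 without overlap between the groups (log2 fold change 1.73, adjusted p = 0.00578), and IRF9 rose as well. Without P cows 01, 18 and 28 neither IRF1 (limma adjusted p = 0.0592) nor SOCS1 (adjusted p = 0.0671) was called.

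On the receptor side, JAK2 fell from 63.5 ± 22.5 to 28.7 ± 15.7 normalized counts (log2 fold change -1.19, SE 0.34, limma adjusted p = 0.0153) while IFNGR2, at 233 ± 46.6 in NP and 133 ± 74.8 in P cows, fell by 0.97 on the log2 scale (SE 0.31, adjusted p = 0.0256). IFNGR2 was lowest in the 3 P cows of fewest reads, at 102.61 in cow 01, 63.74 in cow 18 and 60.12 in cow 28, and without them it was not called (log2 fold change -0.31, adjusted p = 0.369). IFNGR1 (-0.50, adjusted p = 0.0332) and JAK1 (-0.55, adjusted p = 0.00493) were lower by less than the fold minimum. Without the 3 cows 1 gene of this list rose, IRF9, and 2 fell. Among all 11514 genes then tested 1410 were called in either direction, 484 of them higher. IFNG was not analysed here.

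Other genes inducible by IFNG rose more often than they fell. Of 34 tested genes, among which no member is counted, 11 rose, 2 fell and 21 were not called, with a median log2 fold change of 0.42. Among all tested genes 12% were called higher and 14.8% lower. IDO1, which breaks down tryptophan, had means of 55.3 ± 18.5 and 155 ± 56.4 normalized counts and rose by 1.46 on the log2 scale (SE 0.27, limma adjusted p = 0.00174), with NP cows at 36.51 to 76.2 and P cows at 92.84 to 228.56. IL18BP, a decoy for interleukin-18, rose from 35.1 ± 10.3 to 107 ± 40.0 and CCL5, a T cell chemokine, from 211 ± 38.0 to 537 ± 292. FAS and CYBB were the 2 that fell. Without P cows 01, 18 and 28, 8 of 33 tested genes rose and 0 fell, beside 4.2% of all genes then tested called higher. Those were 484 of 11514 genes, and 1410 were called in either direction.

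In a list of type I ISGs 15 of 33 tested genes rose and 0 fell (median log2 fold change 0.59), and 13 rose without the 3 cows. The shares of all tested genes were 12% called higher and 14.8% called lower, and 4.2% called higher without the 3 cows. ISG15, MX1 and IFI27 are among them. XAF1 and IRF9 stand in this list as well as in an IFNG list, and IRF1 stands in both IFNG lists. Whether the members differ from these genes in their response was not tested.

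**Figure D4:**
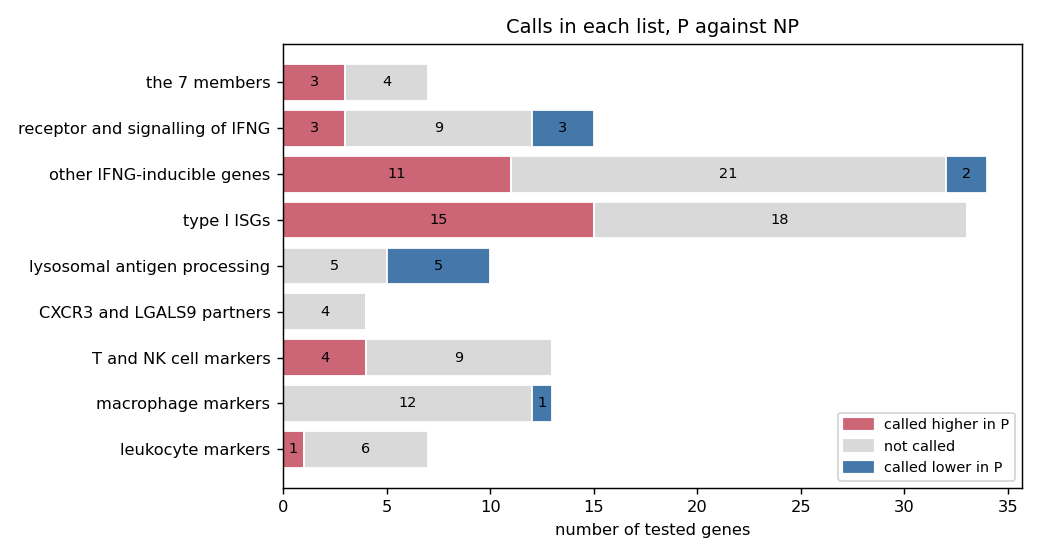
Number of tested genes called higher in P (red), not called (grey) and called lower in P (blue) in each gene list, on an axis of gene counts. The 7 members had 3 called higher and 4 not called, the other IFNG-inducible genes 11 higher and 2 lower, and the lysosomal list 0 higher and 5 lower. Of all tested genes 12% were called higher and 14.8% lower.

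None of the 4 tested genes for partners of the chemokines and galectin-9 was called. HAVCR2, the galectin-9 receptor gene, had 15.2 ± 3.90 normalized counts in NP and 30.7 ± 17.5 in P cows (log2 fold change 0.86, adjusted p = 0.0721). DPP4, whose product trims CXCL10, had 23.2 ± 13.8 and 8.64 ± 2.39 (log2 fold change -1.10, adjusted p = 0.0716). In the lysosomal list, which includes IFI30, 5 of 10 tested genes fell and 0 rose, beside 14.8% and 12% of all tested genes. Among the 5 were the protease gene CTSD (from 8020 ± 447 to 4188 ± 1124 normalized counts, log2 fold change -0.98, limma adjusted p = 0.00134) and the membrane protein gene LAMP1 (log2 fold change -1.25, adjusted p = 0.00326). Without P cows 01, 18 and 28, 2 genes of the list were called lower. Of the 11514 genes then tested 1410 were called in either direction, 484 of them higher.

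Leukocyte markers were measured because T and NK cells make IFNG and macrophages are rich in several members. Of 13 tested T and NK cell markers 4 rose and 0 fell, beside 12% of all tested genes called higher and 14.8% called lower. CD8A rose from 36.0 ± 11.9 to 81.0 ± 33.9 normalized counts (log2 fold change 1.12, limma adjusted p = 0.00879), CD3E from 133 ± 31.1 to 218 ± 52.4 (0.71, adjusted p = 0.0120) and NKG7 from 94.9 ± 34.2 to 167 ± 42.0 (0.86, adjusted p = 0.0230), and TBX21 was the fourth. Without P cows 01, 18 and 28 only CD8A of these 4 was still called (adjusted p = 0.0347). GNLY, which was not called with 12 cows, then passed as well (adjusted p = 0.0304). That made 2 of 13 markers called higher, beside 4.2% of all genes then tested. CD3D (-0.04, adjusted p = 0.947) and PRF1 (-0.35, adjusted p = 0.448) were not called. The 17 T and NK cell genes in the table summed to between 452.4 and 839.6 in NP and between 677.6 and 1532 in P cows. None of the 17 was at 0 in every cow. The sum was highest in P cow 18, which was also highest in GBP2, GBP5, IFI30 and LGALS9, and in NP cows it was highest in cow 42. In a bulk sample, more cells of a type and more RNA per cell cannot be told apart, and the part of these cells in the members' differences was not tested.

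Of 13 tested macrophage markers 0 rose and 1, MRC1, fell, beside 12% and 14.8% of all tested genes. Their 15 genes summed to between 863.7 and 3491 in NP and between 1192 and 3151 in P cows, lowest in NP cow 32 and highest in NP cow 42 and P cow 27. Their part in the members' values was not tested either. The leukocyte gene PTPRC stood at 131 ± 52.6 in NP and 131 ± 51.1 in P cows (log2 fold change 0.02, adjusted p = 0.964). Of the 7 leukocyte markers only CORO1A was called (0.70, adjusted p = 0.0279). Without P cows 01, 18 and 28 neither MRC1 (adjusted p = 0.103) nor CORO1A (adjusted p = 0.130) was called.

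A few markers of other cell types were called as well. JCHAIN, a plasma cell gene, rose by 1.248 on the log2 scale (limma adjusted p = 0.00429). Of 12 endothelial markers 1 rose, EGFL7, and 2 fell, namely PECAM1 (-2.56, adjusted p = 0.00134) and CDH5 (-1.19, adjusted p = 0.00218). Of 11 pericyte and fibroblast markers 2 rose and 3 fell, among them LUM (-1.55, adjusted p = 0.0030). Beside these counts, 12% of all tested genes were called higher and 14.8% lower. The median log2 fold change was -0.41 over the endothelial markers and 0.002 over the pericyte and fibroblast markers, beside -0.01 over all tested genes. Not called were 9 of the 12 endothelial and 6 of the 11 pericyte and fibroblast markers. JCHAIN, EGFL7, PECAM1, CDH5 and LUM were also called without P cows 01, 18 and 28. The part of these cells in the members' values was not tested.

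Without P cows 01, 18 and 28, with 3 P against 6 NP cows, 0 of the 7 members were called higher, beside 4.2% of the 11514 genes then tested. GBP2 then had a log2 fold change of 2.31 (limma adjusted p = 0.0758), GBP4 one of 2.20 (adjusted p = 0.169) and LGALS9 one of 0.37 (adjusted p = 0.128). Over all alternatives the adjusted p ran from 0.000361 to 0.130 for GBP2, from 0.00431 to 0.252 for GBP4 and from 0.00174 to 0.278 for LGALS9. The 3 remaining P cows, 19, 27 and 29, had 46.5 to 55.13 normalized counts of GBP2 and 82.12 to 103.79 of GBP4, all above the NP cows. The folds were then 4.96 for GBP2, 4.59 for GBP4 and 1.29 for LGALS9.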

How the data were processed

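The authors trimmed single-end reads with cutadapt, mapped them with STAR (2.4.2a in the submitters' notes) to ARS-UCD1.2 and used htseq-count for reads per Ensembl gene. The deposited signal values are those counts, scaled by DESeq2 size factors and given to 2 decimals or fewer. Whether counting used strand, and how reads shared by similar genes were treated, is not given in the sources used here. Their own fold changes and p-values were not used. Dividing by the value of 1 read gave whole reads for 99.9868% or more of a library's values (within 0.0051). In P cow 27, 1 read is worth 0.989, so near 1 that its recovered reads could not be checked independently.

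The main test was limma 3.58.1 in R 4.3.3, with a variance trend, on log2(value + 1) of all genes that reached 30 in 1 cow or more. The added 1 and a listed 0 weigh on the fold of low genes: for GBP4 the main scale gave 2.47, edgeR with TMM factors 1.74 and DESeq2 1.77. Single members were also tested with a two-sided exact permutation test. Alternatives on recovered reads were edgeR 4.0.16, DESeq2 1.42.0 and limma-voom with a weight for each sample. Others were 1 surrogate variable (sva 3.50.0), the log2 library total as covariate, other pseudocounts and filters, and leaving out cows. Members and lists were chosen with earlier results of these data known. Genes named outside the members are drawn from up to 3 of each list with the smallest p, the 3 nearest in profile to each member, GAPDH and RPS26, and further list genes that were chosen after their values were seen. A few of the tested genes are left unreported. RefSeq gave gene order for 3 of the 7 members, and no sequences were used.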

Additional observations from a re-analysis of the deposited data

Results flagged for a closer look

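GBP4 in NP cow 31 stood apart from the other 5 NP cows, which had 15.85 to 64.54 normalized counts. It was listed at 0, with 0 reads in the NP library of most reads (8253360), which allows up to 1.94 normalized counts by counting error alone. On the log2 scale its gap to the next cow was 0.675 of the range of the 6 cows. In the same library GBP2 had 1 read (0.65 normalized counts) and GBP5 123 reads (79.63 normalized counts). This was 1 of 14 such comparisons, each by Dixon's ratio of gap to range. Its rate of about 1 in 20 by chance holds for normally distributed values. A listed 0 widens the gap on this log2 scale, so that rate may not apply here.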

How the results depend on the processing

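GBP2, GBP4 and LGALS9 were called by limma, by edgeR with TMM or upper quartile factors and by DESeq2. They were also called by limma-voom with sample weights and under other pseudocounts and filters. The size for GBP4 went from 1.70 with edgeR and upper quartile factors to 3.84 with limma-voom and sample weights. On recovered reads edgeR with TMM factors called 3203 genes in all, beside 3197 with limma. With the log2 library total as covariate 0 members were called (GBP2 2.09, GBP4 1.82, LGALS9 0.35), and 510 genes in all instead of 3197. This covariate follows the groups in part, since P cows 01, 18 and 28 have the fewest reads. Without P cows 01, 18 and 28 the count was 0 members (GBP2 2.31, GBP4 2.20, LGALS9 0.37) and 1410 genes in all. With 1 surrogate variable LGALS9 was at 0.51, below the fold minimum. CXCL9, not called, turned to -0.11 with the surrogate variable and to -0.0051 with the library total. The cause of these changes was not tested.

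With 1 cow left out, the log2 fold change was 2.17 to 3.001 for GBP2, 1.59 to 2.80 for GBP4, 0.42 to 1.09 for GBP5, -0.12 to 0.42 for CXCL9, 0.02 to 0.51 for CXCL10, 0.18 to 0.56 for IFI30 and 0.52 to 0.79 for LGALS9. The calls higher in P were 2 to 4 members and those lower 0, and genes called in all were 2493 to 3562. No paired analysis was possible because the groups share no cow numbers.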
